A study of Rattus norvegicus with 17 samples.

Results

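Oxidative phosphorylation is carried out in the inner mitochondrial membrane by large protein complexes whose subunits are mostly encoded in the nucleus. The genes described here are those whose symbol in the deposited gene tables begins with Ndufa, Ndufb, Ndufc, Ndufs or Ndufv and a digit, with Uqcr, with Cox4, Cox5, Cox6, Cox7 or Cox8, or with Atp5, or is Sdha, Sdhb, Sdhc, Sdhd or Cycs. This rule was met by 84 symbols on 87 rows of each table, among 126306 features of which 31195 carry 1 gene name. For Cox6b1, Ndufa1 and Uqcrb, the 3 symbols with more than 1 row, the row with the highest mean level was used. A mean of at least 1 FPKM over sham and surgery left 77 genes in the 1/3Nx table and 78 in the 5/6Nx table. The deposited level is the FPKM, the number of sequenced fragments scaled by feature length in kilobases and by mapped fragments in M (SI prefix mega), with 1 value per group and no value per animal.

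The symbols under the minimum were Cox6c-ps1, Cox7b2, Cox8c, Ndufa13, Ndufb4l1 and Ndufv3-ps1 in both tables and Cox7a1 in the 1/3Nx table. Around the minimum, the authors' deposited table of 1/3Nx lists Ndufa4l2 just inside it at 2.66 FPKM in sham and 1.74 in 1/3Nx, and Cox7a1 just outside it at 0.934 and 0.601. Cox7a1 and Cox6a2 were at 0.467 and 0.892 FPKM in sham in the authors' deposited table of 5/6Nx and entered only through their level after surgery, so counts over the genes that passed do not cover all symbols.

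Male Sprague Dawley rats that arrived at 9 weeks of age and ate a 0.4% Dyets chow had surgery at 10 weeks, and their left kidney was taken 6 weeks later. No group received a drug or other treatment. The 5/6Nx surgery (6 rats) removed the whole right kidney together with the larger part of the left one. The 1/3Nx surgery (6 rats) removed only that part of the left kidney, and sham surgery (5 rats) removed none. RNA came from the left kidney as a whole tissue, so fewer cells of a type and less RNA per cell cannot be told apart. Reads per library ran from 59.0 to 103.6 M over the 17 libraries. Reads mapped at 84.8% to 89.6% in sham, 87.1% to 90.1% in 1/3Nx and 62.6% to 90.5% in 5/6Nx, where replicates 3 and 5 were the lowest at 62.6% and 77.2%. The tables hold group values, so these 2 libraries could not be left out and their part in the 5/6Nx values was not tested. As kidney tissue should, sham held the proximal tubule markers, which summed to 5543.64 FPKM over the 9 genes measured of 10 listed.

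In the respiratory chain, complex I takes electrons from NADH and complex II from succinate, complex III passes them to cytochrome c, and complex IV hands them to oxygen. Complexes I, III and IV pump protons, and complex V, the ATP synthase, lets the protons back to make ATP. In the kidney the proximal tubule and the thick ascending limb depend heavily on this route, because sodium transport consumes much ATP. A few subunits of complexes I, III, IV and V are encoded in mitochondrial DNA and the rest in the nucleus, and several nuclear subunits of complex IV have alternative genes used in muscle, lung or testis.

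After 1/3Nx, the oxidative phosphorylation genes were lower in nearly all cases and 16 of them fell. Of the 77 genes, 16 had a q-value (Benjamini-Hochberg adjusted p) under 0.05 with a lower level in the authors' deposited table and 0 with a higher one, and 49 were lower and 1 higher at an unadjusted p under 0.05. The median log2 fold change was -0.56, with quartiles at -0.69 and -0.41, and 73 of the 77 were lower. Across the authors' deposited table of 1/3Nx, 2.44% of all tested features and 2.98% of named features of at least 1 FPKM fell, and 9.49% of the latter were lower at an unadjusted p under 0.05. The summed level went from 74609.7 to 48963.3 FPKM, a difference of -34.4%. For other named genes the sum differed by -13.4% at 1 FPKM or more and by -16.6% at 100 FPKM or more. In the authors' isoform table, where 0.658% of 39970 tested transcripts fell, against 21217 features tested in the gene table, 7 of the 16 still passed, namely Atp5d, Atp5g1, Atp5i, Ndufb10, Ndufb2, Ndufb7 and Uqcr11. Another 8, Atp5e, Cox4i1, Cox5a, Ndufa3, Ndufb11, Ndufs8, Ndufv1 and Uqcrc1, did not pass there at log2 fold changes within 0.011 of those in the gene table, with p-values from 0.00095 to 0.00365 and q-values from 0.0533 to 0.143. Ndufs7, the remaining gene, turned direction. The genes that fell in the gene table belong to complex I (8), complex III (2), complex IV (2) and complex V (4).

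These are highly expressed genes, and highly expressed genes as a whole were lower after 1/3Nx. Of the 67 members at 100 FPKM or more, all 67 were lower, 16 fell and the median was -0.58. Among 966 other named genes at this level 122 fell, 77.7% were lower and the median was -0.31. With members included, 13.4% of named features at 100 FPKM or more fell in the authors' deposited table. At 10 FPKM or more the median was -0.56 for 71 members and -0.13 for 5879 other named genes, and at 1 FPKM or more it was 0.01 for 11564 other named genes. The median of all named features at 10 FPKM or more, -0.13, is a shift larger than 0.1 on the log2 scale. Relative to it, 67 of the 77 members were lower and their median was -0.42.

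After 5/6Nx none of the 78 genes passed. By the test of the authors' deposited table, which has the layout of Cufflinks output, 0 fell and 0 rose at a q under 0.05, and 1 was at an unadjusted p under 0.05, Cox8b, which was higher. The median log2 fold change was -0.19 with quartiles at -0.50 and 0.19, and 49 genes were lower and 29 higher. Relative to the median of named features of at least 10 FPKM there, -0.11, the members' median was -0.079 with 44 of 78 lower. At 100 FPKM or more, 63 members had a median of -0.19 with 63.5% lower. The 573 other named genes at this level had a median of 0.07 with 45.6% lower, and the difference was not tested. In the whole authors' deposited table of 5/6Nx, 57.9% of tested features rose and 0.137% fell. Among named features of at least 1 FPKM there, 7.18% rose and 0.0869% fell, while 8.87% were higher and 0.191% lower at an unadjusted p under 0.05. Falls were thus rare among all named genes of this table, and the absence of falls among 78 members is near that background. The summed level was 37361 FPKM in sham and 38322.9 in 5/6Nx, a difference of 2.58%. For other named genes the sum differed by 30.7% at 1 FPKM or more and by 40.0% at 100 FPKM or more.

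**Figure D1:**
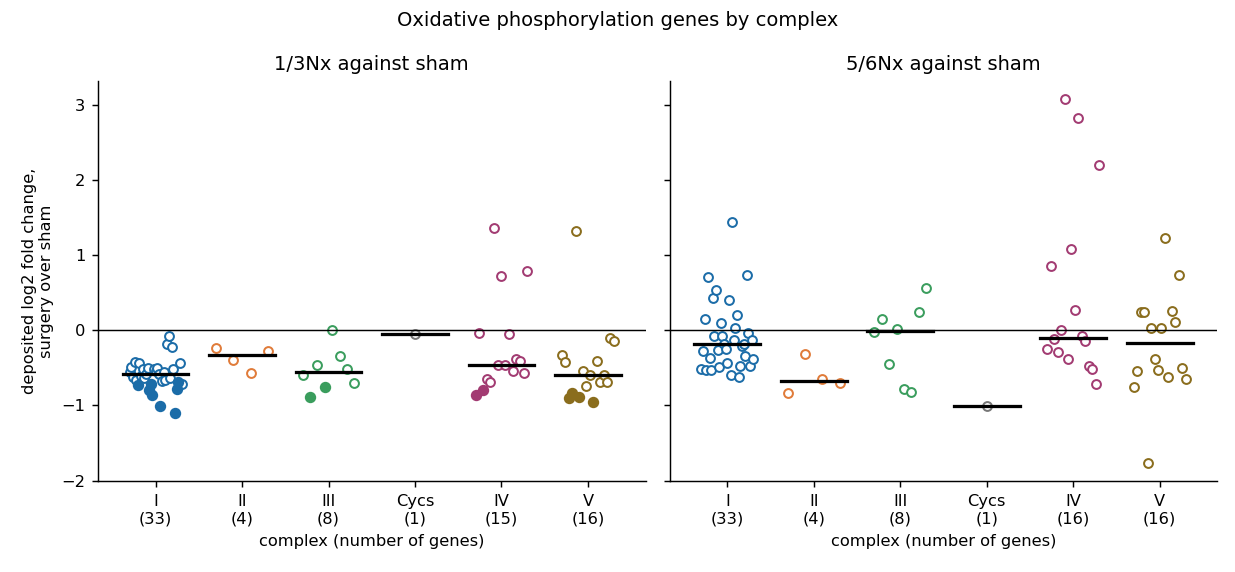
Log2 fold change, from the deposited group levels, of each oxidative phosphorylation gene, grouped by complex, in 1/3Nx (left) and 5/6Nx (right) against sham. Filled points passed a q of 0.05, open points did not, and bars mark medians. On the left the filled points all lie below 0, and on the right no point is filled and the points spread from -1.77 to 3.07.

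The promoters of these genes are known as targets of shared factors, among them NRF1, the ETS factor GABP, YY1 and the estrogen-related receptors. RefSeq windows from 250 bases before to 50 bases after the gene start (build GRCr8) were matched to 66 of the 77 genes by symbol or synonym on the same chromosome. On either strand, GCGCNTGCG, a core of the NRF1 motif, occurred in 17 of 66 windows (25.8%) against 5.75% of all 33469 promoters. CCGGAAG, an ETS motif, occurred in 18 (27.3%) against 8.75%, AAGATGGCG, the YY1 motif at translation starts, in 9 (13.6%) against 1.73%, and CAAGGTCA, bound by estrogen-related receptors, in 4 (6.06%) against 1.52%. At least 1 of the 4 motifs was in 37 of the 66 windows (56.1%), in 8 of the 15 windows of genes that fell after 1/3Nx, and in 5346 of all 33469 promoters (16%). The NRF1 core is nearly its own reverse complement, so 1 site can match on both strands. The 33469 promoters were not matched to the members for level or base composition. These matches describe the letters of the windows and are no evidence of binding. The windows of 1 fallen gene from each complex with a fall follow, chosen because they hold a match. They are written 5′ to 3′ on the gene's strand, with motif matches in capitals.
Ndufb7, chr19:41477242-41477541, minus strand: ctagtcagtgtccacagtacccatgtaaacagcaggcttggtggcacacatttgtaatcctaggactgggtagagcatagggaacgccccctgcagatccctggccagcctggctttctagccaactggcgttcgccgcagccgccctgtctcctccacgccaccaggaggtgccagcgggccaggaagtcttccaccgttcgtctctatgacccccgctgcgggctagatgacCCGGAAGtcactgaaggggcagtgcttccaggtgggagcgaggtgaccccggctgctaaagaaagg
Uqcrc1, chr8:118467973-118468272, plus strand: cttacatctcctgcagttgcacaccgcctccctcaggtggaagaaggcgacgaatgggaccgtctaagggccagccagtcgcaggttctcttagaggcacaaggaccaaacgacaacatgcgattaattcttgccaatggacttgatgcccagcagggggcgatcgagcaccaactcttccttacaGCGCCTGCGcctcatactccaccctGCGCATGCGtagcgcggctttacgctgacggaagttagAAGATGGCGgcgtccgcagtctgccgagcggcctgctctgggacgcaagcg
Cox4i1, chr19:65630133-65630432, plus strand: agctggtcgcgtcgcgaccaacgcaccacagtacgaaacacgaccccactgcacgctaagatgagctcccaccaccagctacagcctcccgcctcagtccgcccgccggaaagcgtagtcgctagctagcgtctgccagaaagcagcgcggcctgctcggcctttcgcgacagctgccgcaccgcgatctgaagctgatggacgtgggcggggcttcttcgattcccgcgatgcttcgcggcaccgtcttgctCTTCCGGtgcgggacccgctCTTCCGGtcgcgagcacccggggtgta
Atp5i (RefSeq Atp5me), chr14:1464610-1464909, plus strand: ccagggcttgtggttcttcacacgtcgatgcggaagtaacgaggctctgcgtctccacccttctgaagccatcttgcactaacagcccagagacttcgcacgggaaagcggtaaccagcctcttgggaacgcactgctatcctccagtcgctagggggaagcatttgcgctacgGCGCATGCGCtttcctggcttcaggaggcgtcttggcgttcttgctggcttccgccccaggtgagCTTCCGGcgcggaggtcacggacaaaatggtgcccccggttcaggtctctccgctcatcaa

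The window of Ndufb7 holds an ETS match, that of Cox4i1 holds 2, that of Uqcrc1 holds NRF1 cores and a YY1 match, and that of Atp5i holds an NRF1 core that matches on both strands and an ETS match. None of these motifs was found in 7 of the 15 windows of fallen genes, which says only that these letters are absent there. The factors themselves did not pass in the 1/3Nx table, in which 0 of 12 measured regulators passed and their median was 0.02. Of 11564 named genes outside the members at 1 FPKM or more, 331 fell and 628 rose, so 0 of 12 is near that background. The activity of these factors was not tested. Nrf1 was at 5.35 FPKM in sham and 5.50 after surgery, Gabpa at 5.29 and 5.90, Yy1 at 22.3 and 25.7, and Esrra at 47.5 and 37.5 in the authors' deposited table of 1/3Nx. Ppargc1a, the coactivator PGC-1alpha that drives mitochondrial biogenesis, was at 9.67 and 9.36 FPKM in the authors' deposited table, and Tfam, which packs and transcribes mitochondrial DNA, at 39.5 and 38.8. The remaining regulators of the authors' deposited table of 1/3Nx had log2 fold changes of -0.58 (Polrmt, the mitochondrial RNA polymerase), -0.10 (Esrrb), 0.02 (Esrrg), 0.03 (Ppargc1b), 0.09 (Tfb1m) and 0.24 (Pprc1), with q-values from 0.161 to 0.986.

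Complex I, the NADH dehydrogenase, had 33 measured genes, all lower after 1/3Nx, of which 8 fell and 25 did not pass. The median was -0.58 and the summed level differed by -34.4%. Among the 6 measured core subunits, most of which bind the flavin or iron-sulphur centres, 3 fell. Ndufs7, the subunit with the last iron-sulphur cluster before ubiquinone, is listed in the authors' deposited table at 518.9 FPKM in sham and 241.5 in 1/3Nx and fell just inside the threshold (log2 fold change -1.10, q = 0.0452). Its feature holds more than the annotated transcript, which the authors' isoform table lists at 3.00 FPKM in sham and 3.71 in 1/3Nx, so the fall rests on other transcripts of that feature. Further values in parentheses are log2 fold changes of surgery over sham with their q-values. Ndufs8, another iron-sulphur subunit, fell from 438.2 to 255 FPKM (-0.78, q = 0.0225), and Ndufv1, which binds the flavin and oxidises NADH, from 305.3 to 190.1 (-0.68, q = 0.0398), per the authors' deposited table. By contrast, Ndufs1, the largest core subunit, was at 147.9 and 140.1 FPKM (-0.08, q = 0.947) in the authors' deposited table. The core subunits thus ran from the lowest to the highest log2 fold change of the complex.

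Of the 27 other complex I genes, 5 fell. Ndufb7, an accessory subunit on the intermembrane-space side, fell from 620.9 to 309.6 FPKM (-1.004, q = 0.00598) in the authors' deposited table. Among the other membrane-arm subunits of the authors' deposited table, Ndufb2 fell from 898.4 to 492.5 FPKM (-0.87, q = 0.0152), Ndufb10 from 469.6 to 271.1 (-0.79, q = 0.0152), Ndufb11 from 715.6 to 434.6 (-0.72, q = 0.0338), and Ndufa3 from 659.6 to 398.1 (-0.73, q = 0.0434). Ndufb8 lay just outside the threshold at 956.2 and 598.5 FPKM (-0.68, q = 0.0582) in the authors' deposited table. Ndufa4, the most abundant of these genes in sham, was at 1618.06 and 1193.38 FPKM (-0.44, q = 0.488) in the authors' deposited table. Its product is named for complex I and is now placed in complex IV.

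After 5/6Nx, the 33 complex I genes had a median of -0.19, with 23 lower, 10 higher and a summed level that differed by -1.41%. Ndufb7 had the highest log2 fold change of the complex, at 311.7 FPKM in sham and 843 in 5/6Nx (1.44, p = 0.295, q = 0.352 in the authors' deposited table, whose test of all features was used). For 5/6Nx the authors' deposited table lists Ndufs7 at 260.6 and 434 FPKM (0.74, q = 0.602), Ndufa2, an accessory subunit, at 246 and 401.9 (0.71, q = 0.65), and Ndufc2, of the membrane arm, lowest at 191.1 and 124.6 (-0.62, q = 0.765). Ndufb7, which fell after 1/3Nx, was thus the highest of the complex after 5/6Nx without passing there. The annotated Ndufs7 transcript went against its feature in both comparisons, at 1.49 FPKM in sham and 0.610 after 5/6Nx (-1.29) in the authors' isoform table.

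Complex II, succinate dehydrogenase, is also an enzyme of the citric acid cycle and is encoded wholly in the nucleus. All 4 genes were lower in both tables and none passed. Sdha, which binds the flavin, was in the authors' deposited table of 1/3Nx at 371.7 FPKM in sham and 314.5 after surgery (-0.24, q = 0.68), and Sdhc, a membrane anchor and the most abundant of the 4, at 669.5 and 452.6 (-0.57, q = 0.149). After 5/6Nx, Sdha was in the authors' deposited table at 185.2 and 103.9 FPKM (-0.83, q = 0.449), Sdhb, the iron-sulphur subunit, at 327.2 and 263.5 (-0.31, q = 0.894), and Sdhd, the second anchor, at 178.4 and 110 (-0.70, q = 0.767). Medians were -0.34 after 1/3Nx and -0.67 after 5/6Nx, and the summed levels differed by -24.1% and -32.6%. Whether the surgeries differ here was not tested.

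Complex III, which passes electrons from ubiquinol to cytochrome c, had 8 genes, all lower after 1/3Nx, with a median of -0.56 and 2 that fell. Uqcr11, the smallest subunit, fell from 1171.8 to 634.1 FPKM (-0.89, q = 0.00711) in the authors' deposited table. Uqcrc1, a core protein, fell from 430.7 to 254.7 FPKM (-0.76, q = 0.0202) in the authors' deposited table. Its partner in the core, Uqcrc2, was level at 214.3 and 214.1 FPKM (-0.001, q = 0.999) in the same authors' deposited table, with 70.1 and 78.7 FPKM (0.17) on its annotated transcript. Uqcrq, the most abundant feature of the complex, was at 1855.52 and 1140.83 FPKM (-0.70, q = 0.0701), short of the threshold in the authors' deposited table, though its annotated transcript held only 12.5 FPKM in sham and 7.26 after 1/3Nx (-0.79) in the isoform table. Of the pair of core proteins, which stand together in the complex, 1 fell and the other did not pass, and the difference between them was not tested.

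After 5/6Nx complex III was split evenly, with 4 genes lower and 4 higher, a median of -0.01 and a summed level that differed by 11.9%. The sum of other named genes of at least 1 FPKM differed by 30.7% there. Highest in the authors' deposited table of 5/6Nx was the Uqcrq feature, at 930.6 FPKM in sham and 1371.48 after surgery (0.56, q = 0.753). Its annotated transcript was listed at 6.26 and 4.52 FPKM (-0.47) in the authors' isoform table, so the higher level of the feature was not that of this transcript. The lowest was Uqcrfs1, the Rieske iron-sulphur protein, at 286 and 161.9 FPKM (-0.82, q = 0.447) in the authors' deposited table, next to Uqcrc2 at 106.5 and 61.9 (-0.78, q = 0.512). Cycs, cytochrome c, the mobile carrier between complexes III and IV, was at 1333.83 and 1283.76 FPKM (-0.05, q = 0.94) in the authors' deposited table of 1/3Nx. For 5/6Nx the authors' deposited table has it at 664.4 and 331.3 FPKM (-1.004, q = 0.571), which did not pass.

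Complex IV, cytochrome c oxidase, had 15 measured genes after 1/3Nx, 12 lower and 3 higher, of which 2 fell. The 2 are 13.3% of these 15 genes. They are 18.2% of the 11 genes left without the tissue-restricted forms, whose lowest sham level was 154.8 FPKM. Of all named features at 100 FPKM or more, 13.4% fell, and the difference from 2 of 11 was not tested. Cox4i1, the general form of the subunit with a regulatory role in the complex, fell from 2613.25 to 1432.54 FPKM (-0.87, q = 0.0265) in the authors' deposited table. Cox5a, a matrix-side subunit, fell from 1600.2 to 924.2 FPKM (-0.79, q = 0.0209) in the authors' deposited table. Cox6c, the most abundant in sham, was at 2881.45 and 2083.19 FPKM (-0.47, q = 0.329) in the authors' deposited table. Without these forms, which are Cox4i2, Cox6a2, Cox6b2 and Cox8b, all 11 genes left were lower and the median moved from -0.46 to -0.55. After 5/6Nx those 11 had a median of -0.25 with 9 lower, and the largest of them downward was Cox8a at 1310 and 794.3 FPKM (-0.72, q = 0.711) in the authors' deposited table. Cox6c was the highest of the 11 there at 1443.21 and 1741.17 FPKM (0.27, q = 0.874), per the authors' deposited table.

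Complex V, the ATP synthase, had 16 genes, 15 lower after 1/3Nx, 4 of which fell, with a median of -0.60. The summed level went from 27584.4 to 17210.8 FPKM, a difference of -37.6%. Atp5i, subunit e of the membrane part and the most abundant of all members, fell from 4298.64 to 2210.06 FPKM (-0.96, q = 0.0152) in the authors' deposited table. In the central stalk of the authors' deposited table, Atp5d (delta) fell from 950.9 to 508.5 FPKM (-0.90, q = 0.00944) and Atp5e (epsilon) from 3639.01 to 2031.24 (-0.84, q = 0.0423). Atp5a1 (alpha) and Atp5b (beta), which form the catalytic head, did not pass, at -0.33 (q = 0.6) and -0.43 (q = 0.595) in the authors' deposited table, with Atp5b at 3251.85 and 2417.35 FPKM. The 4 falls of complex V lay in the stalk, the rotor ring and the membrane part.

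After 5/6Nx, 8 genes of complex V were lower and 8 higher, with a median of -0.18. Other named genes of at least 1 FPKM differed by 30.7% in their sum. The summed level of complex V was 13820.6 FPKM in sham and 16563.2 after surgery, a difference of 19.8%. Atp5i had 2159.02 FPKM in sham and 5057.39 in 5/6Nx (1.23, q = 0.37) in the authors' deposited table and so differed by more than the sum did. Atp5o, of the peripheral stalk, was at 705 and 1169.83 FPKM (0.73, q = 0.623), Atp5a1 at 769.7 and 455.2 (-0.76, q = 0.677), and Atp5b at 1623.46 and 1112.03 (-0.55, q = 0.758) in the authors' deposited table of 5/6Nx. The lowest log2 fold change of all members, -1.77, was on the row of Atp5f1, at 2.04 and 0.600 FPKM (q = 0.162) in the authors' deposited table. That row is a feature shared with a second gene name, LOC100911417, and after 1/3Nx it was at 4.10 and 10.2 FPKM (1.31, q = 0.375) in the authors' deposited table, so its values are uncertain for the b subunit. Atp5s and Atp5sl, matched by their symbols, are now named as assembly factors and were at 10.7 and 25.4 FPKM in sham of 1/3Nx in the authors' deposited table, with log2 fold changes of -0.10 and -0.15.

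**Figure D2:**
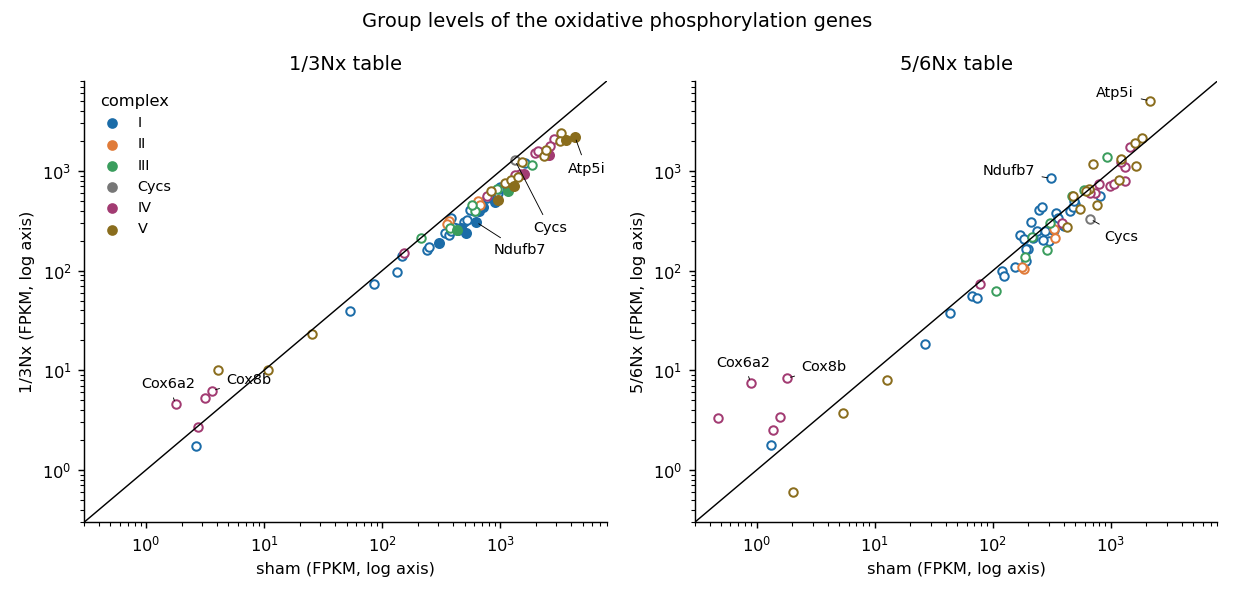
Level after surgery (vertical) against level in sham (horizontal), in FPKM on log axes, for each gene in the 1/3Nx table (left) and the 5/6Nx table (right), coloured by complex, filled where q was under 0.05; the line marks equal levels. After 1/3Nx the genes of 10 FPKM or more lie on or below the line, with Atp5i and Ndufb7 filled, and after 5/6Nx these 2 genes lie above it and Cycs below.

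The surgeries are set side by side here because both were compared with the same sham rats. The sham levels of the members were 1.998 times as high in the 1/3Nx table as in the 5/6Nx table (1.99 to 2.01 over 77 genes), so levels were compared within a table. The 16 genes that fell after 1/3Nx had log2 fold changes from -0.47 to 1.44 after 5/6Nx, with a median of 0.02, 7 of them lower and 9 higher. Of the 77 genes measured in both, 48 were lower in both, 25 were lower in 1/3Nx and higher in 5/6Nx, 3 were higher in both, and 1, the Atp5f1 row, was higher in 1/3Nx and lower in 5/6Nx. No test of the difference between surgeries can be had from group values.

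The genes that fell after 1/3Nx included short and long genomic features. Over the 70 members at 10 FPKM or more with a listed position, 11 of the 35 with spans under 8287 bases fell and 5 of the 35 above. Their medians were -0.65 and -0.50, and Spearman's rho between span and log2 fold change was 0.40 across these 70 genes. After 5/6Nx the medians were -0.08 for the shorter and -0.28 for the longer of 69 genes, with a rho of -0.15. Genes are not independent replicates, all values come from the same libraries, and a listed span can hold more than the gene.

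**Figure D3:**
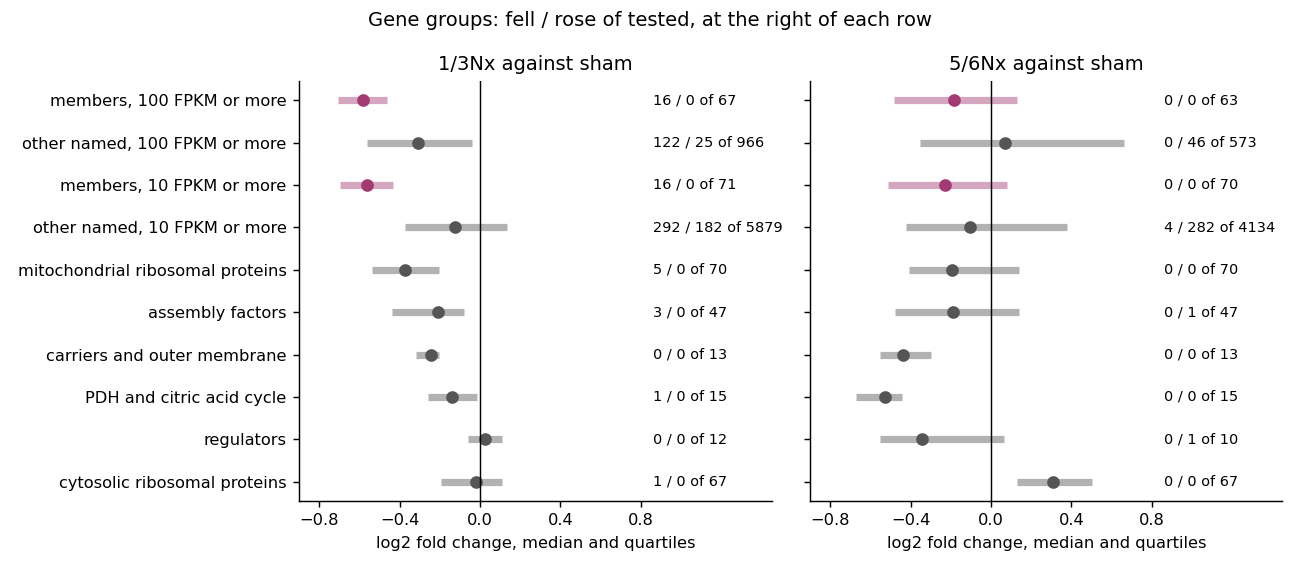
Median (point) and quartiles (bar) of the log2 fold change in oxidative phosphorylation genes ("members"), other named genes of the same level and related gene lists. Each surgery has a panel, and the figures at the right of a row are the genes that fell, rose and were tested. Members at 100 FPKM or more sit at -0.58 after 1/3Nx, against -0.31 for other named genes at that level.

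Other mitochondrial genes had medians nearer 0 after 1/3Nx and were also less expressed. Median sham levels were 654.5 FPKM for members, 80.9 for mitochondrial ribosomal protein genes and 23.2 for assembly factors. They were 183.5 FPKM for pyruvate dehydrogenase and citric acid cycle genes, 199.5 for carriers and outer membrane, and 1077.91 for cytosolic ribosomal protein genes. The part of level in the differences between lists was not tested. Of 70 mitochondrial ribosomal protein genes, which translate the mitochondrially encoded subunits, 5 fell and 68 were lower (median -0.37). Of 47 measured assembly factors of the 50 listed, 3 fell and the median was -0.21. Cox17, a copper chaperone of complex IV, fell from 510.6 to 309.6 FPKM (-0.72, q = 0.0363), Uqcc3, an assembly factor of complex III, from 190.2 to 103.3 (-0.88, q = 0.00833), and Ecsit, of complex I assembly, from 71.9 to 45.9 (-0.65, q = 0.0447) in the authors' deposited table. Of 15 measured genes of pyruvate dehydrogenase and the citric acid cycle 1 fell, Mdh2, malate dehydrogenase, from 505.2 to 318.8 FPKM (-0.66, q = 0.0429) in the authors' deposited table, and the median was -0.14. None of 13 carrier and outer membrane genes passed (median -0.25). Of 67 cytosolic ribosomal protein genes 1 fell and the median was -0.02. Of all named genes outside the members, 2.86% fell at 1 FPKM or more, 4.97% at 10 or more and 12.6% at 100 or more. The few calls in each list are thus no result about that list.

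The mitochondrially encoded Mt-nd1, a core subunit of complex I, was at 15316.6 FPKM in sham and 15405.1 after 1/3Nx (0.01, q = 0.996) in the authors' deposited table. In that of 5/6Nx it was at 7614.86 and 7122.55 FPKM (-0.10, q = 0.949), per the authors' deposited table. The 1 mitochondrial gene with a test thus did not pass, beside nuclear subunits of the same complex that fell.

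After 5/6Nx the lists stood in another order. All 15 citric acid cycle and pyruvate dehydrogenase genes were lower with a median of -0.53, all 13 carrier and outer membrane genes were lower with a median of -0.44, and none of either list passed. The 70 mitochondrial ribosomal protein genes had a median of -0.19 and the 67 cytosolic ones 0.31, with 0 passing in each. Tmem126b, an assembly factor of complex I, rose from 8.27 to 138.6 FPKM (4.07, q = 9.196e-05) in the authors' deposited table, the 1 call among 47 assembly factors (median -0.19). Pprc1, a coactivator related to PGC-1alpha, rose from 1.22 to 63.6 FPKM (5.70, q = 9.196e-05) in the authors' deposited table, the 1 call among 10 measured regulators (median -0.34). Of all named features of at least 1 FPKM, 7.18% rose after 5/6Nx, so 1 call in a list does not set that list apart. The other regulators of the authors' deposited table of 5/6Nx at 1 FPKM or more ran from -1.29 (Esrrg, at 6.14 and 2.51 FPKM) through -0.77 (Ppargc1a), -0.56 (Tfam), -0.52 (Tfb1m), -0.49 (Yy1), -0.20 (Esrra), -0.15 (Gabpa) and 0.13 (Polrmt) to 0.56 (Nrf1). Esrrb and Ppargc1b were under the minimum of 1 FPKM after 5/6Nx.

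Several subunits have more than 1 gene. For Cox4, Cox6a, Cox6b, Cox8 and Ndufa4 the general form supplied at least 98.9% of the summed level of its set in each group of both tables. In the authors' deposited table of 1/3Nx, Cox6a1 was at 2454.52 FPKM in sham and 1521.76 after surgery (-0.69, q = 0.136) and its heart and muscle form Cox6a2 at 1.78 and 4.59 (1.36, p = 0.0202, q = 0.175, from the test over all features). Cox6a2 supplied 0.0726% of the Cox6a level in sham and 0.301% after 1/3Nx, and 0.0724% and 0.606% in the 5/6Nx table. In the authors' deposited table of 5/6Nx, Cox6a2 was at 0.892 and 7.50 FPKM (3.07, q = 0.109), Cox8b, a muscle and brown fat form, at 1.81 and 8.31 (2.197, q = 0.0626), and Cox7a1, another muscle form, at 0.467 and 3.29 (2.82, q = 0.305). None of these passed, and each stayed under 10 FPKM. Cox8b after 1/3Nx was at 3.63 and 6.24 FPKM (0.78, q = 0.713) in the authors' deposited table.

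Summed levels of muscle markers were higher after both surgeries, while Cox7a1, unlike Cox6a2 and Cox8b, was lower after 1/3Nx (-0.64, q = 0.805 in the authors' deposited table). Of the 6 skeletal muscle markers listed, the 5 with a feature summed to 1.66 FPKM in sham and 8.40 after 1/3Nx, and to 0.829 and 6.78 in the 5/6Nx table. Heart muscle markers (2 of 3 with a feature) summed to 6.65 and 8.34 FPKM after 1/3Nx, and to 3.32 and 31.2 after 5/6Nx. Both heart markers, Actc1 and Tnnt2, rose in the authors' deposited table of 5/6Nx, with log2 fold changes of 3.34 and 3.14, and neither passed after 1/3Nx (0.18 and 0.43). The skeletal muscle markers Acta1, Ckm, Tnnt3 and Myh2 rose in the authors' deposited table of 1/3Nx, with log2 fold changes of 2.15, 1.92, 2.27 and 4.66. After 5/6Nx Myh2 passed in the authors' deposited table, at 5.55 and from 0.00787 FPKM in sham, while Acta1 and Ckm did not and the remaining markers of this list had no test. At 1 FPKM or more, 628 of 11564 named genes outside the members rose after 1/3Nx, and 7.18% of all named features after 5/6Nx. Brown fat markers Ucp1 and Cidea summed to 5.69 and 6.28 FPKM after 1/3Nx and to 2.83 and 2.18 after 5/6Nx. The part of muscle cells in the Cox6a2, Cox7a1 and Cox8b values was not tested.

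No other alternative form passed in either table. Cox4i2, a form of lung known for its link to low oxygen, was at 2.76 FPKM in sham and 2.68 after 1/3Nx (-0.04, q = 0.982), and at 1.38 and 2.50 after 5/6Nx (0.85, q = 0.483), in the authors' deposited table of each surgery. In the authors' deposited table of 1/3Nx, the testis form Cox6b2 was at 3.16 and 5.22 FPKM (0.72, q = 0.567) against 777.6 and 564.7 for Cox6b1 (-0.46, q = 0.266). For 5/6Nx the authors' deposited table lists Cox6b2 at 1.59 and 3.36 FPKM (1.08, q = 0.441) and Cox6b1 at 389.2 and 298.4 (-0.38, q = 0.781). Ndufa4l2, induced by low oxygen in other tissues, was at 2.66 and 1.74 FPKM after 1/3Nx (-0.62, q = 0.58) and at 1.33 and 1.79 after 5/6Nx (0.42, q = 0.787) in the authors' deposited table of each. The feature of Cox7a2l, a gene whose product joins complexes III and IV into supercomplexes, was nearly level at 154.8 and 149.1 FPKM after 1/3Nx (-0.05, q = 0.932) and at 77.3 and 73.0 after 5/6Nx (-0.08, q = 0.955) in the authors' deposited table of each surgery. Its annotated transcript held 1.05% of the level in sham in both, so these values are not those of that transcript. Cox7a2l2, which supplied 89.6% of the Cox7a level in sham, was at 1335.42 and 914.3 FPKM after 1/3Nx (-0.55, q = 0.187) in the authors' deposited table.

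The c subunit, which forms the rotor ring of the ATP synthase, has 3 genes that encode the same mature protein. Their summed level was 4739.57 FPKM in sham and 2852.7 after 1/3Nx, and 2374.04 and 1898.64 in the 5/6Nx table. Atp5g1 fell after 1/3Nx, from 1300.85 to 701.5 FPKM (-0.89, q = 0.00598), in the authors' deposited table. Atp5g2 and Atp5g3 did not pass at 1090.71 and 750.2 FPKM (-0.54, q = 0.164) and at 2348.01 and 1400.93 (-0.75, q = 0.0777) in the authors' deposited table. After 5/6Nx their log2 fold changes were 0.03 (Atp5g1), -0.38 (Atp5g2) and -0.53 (Atp5g3) in the authors' deposited table, with q-values from 0.734 to 0.986. Atp5g3 supplied the largest share in sham, 49.5% in both tables.

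**Figure D4:**
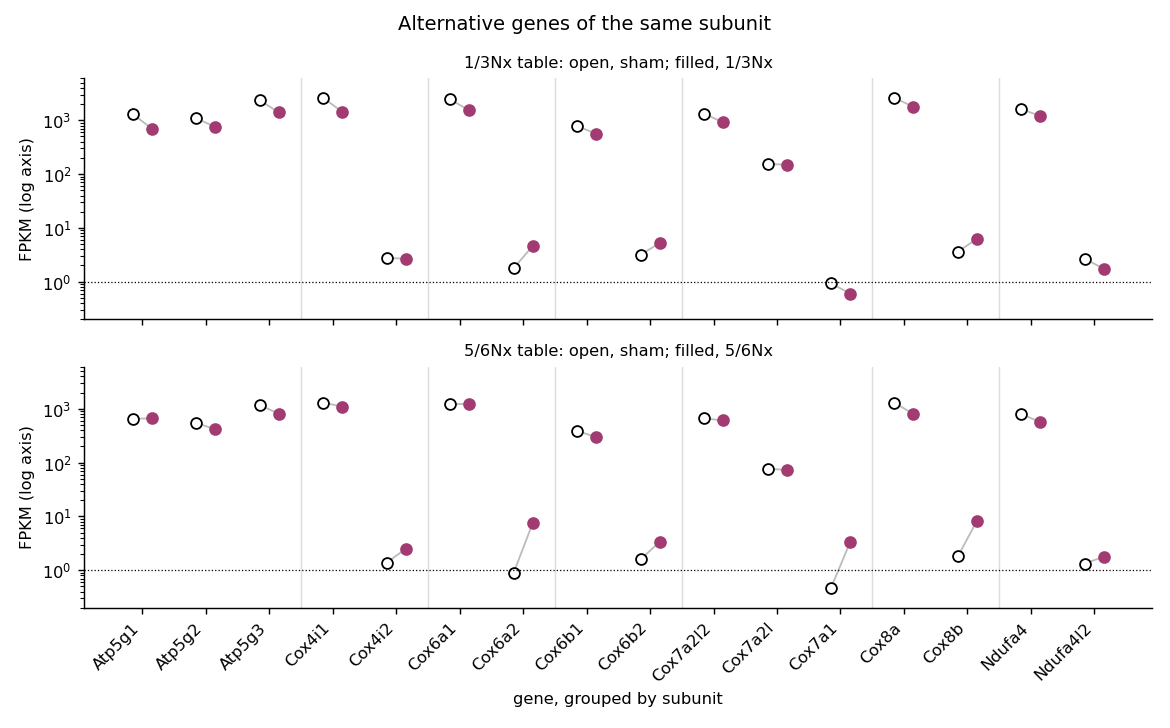
Level in FPKM on a log axis of the alternative genes of each subunit in sham (open) and after surgery (filled), in the 1/3Nx table (top) and the 5/6Nx table (bottom); the dotted line marks the minimum of 1 FPKM. Cox6a2, Cox7a1 and Cox8b go up most after 5/6Nx and stay under 10 FPKM, below the general forms in both tables.

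Some subunits and rows lie outside these counts. A second row of Cox6b1, a short locus on chromosome 2 from 211337270 to 211337531, fell from 492.1 to 289.9 FPKM (-0.76, q = 0.0357) after 1/3Nx in the authors' deposited table, beside the row used, which did not pass. Ndufab1, an acyl carrier protein and complex I subunit whose symbol the rule does not match, was at 486.3 and 317.2 FPKM after 1/3Nx (-0.62, q = 0.0881) in the authors' deposited table. Ndufa5, a complex I subunit, is the second name of a feature that begins with Iqub, and this feature had a log2 fold change of -0.23 after 1/3Nx in the authors' deposited table. The Ndufa13 row is a short locus at under 0.1 FPKM in the authors' deposited table and says nothing of that subunit. Ndufb6 shares its feature with Topors, and Atp5j shares its listed interval with Gabpa, so reads of these pairs cannot be told apart with certainty. In the isoform table, transcripts listed under the gene's own name held under 2% of the feature's level in sham for 6 members in each table, Atp5f1, Atp5j, Cox7a2l, Ndufc1, Ndufs7 and Uqcrq, and from 2% to 50% for Cox4i2 and Uqcrc2, so the values of these features are uncertain for the named genes.

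Markers of other cell types passed in the same comparisons. After 1/3Nx all 9 proximal tubule markers were lower with a median of -0.41, and 2 fell, Ggt1, a brush-border peptidase, from 1905.44 to 994 FPKM and Slc22a6, an organic anion transporter, from 485 to 276.7, in the authors' deposited table. The other nephron lists had medians of 0.11 (thick ascending limb, 4 genes), -0.19 (distal tubule, 3), 0.05 (collecting duct, 5) and -0.075 (podocyte, 4). Of these lists, only 1 podocyte marker fell. The proximal tubule markers had a median sham level of 391.9 FPKM. Of 966 named genes outside the members at 100 FPKM or more, 122 fell, 77.7% were lower and the median was -0.31. At 1 FPKM or more, 2.98% of all named features fell after 1/3Nx. All 6 macrophage markers rose, summed from 276.5 to 751.9 FPKM, and all 5 measured fibroblast and mural markers rose, summed from 87.3 to 299.4. All 6 exocrine pancreas markers rose too, summed from 1.08 to 564 FPKM. Among 11564 named genes outside the members at 1 FPKM or more, 628 rose after 1/3Nx. After 5/6Nx the proximal tubule median was -0.17 with 0 of 9 passing, the 4 thick ascending limb markers were all lower with a median of -1.13 and 0 passing, and 0 of 6 macrophage markers passed with all 6 higher. All 5 collecting duct markers (median -0.66), all 4 podocyte markers (-0.94) and 2 of 3 distal tubule markers (-0.085) were lower after 5/6Nx, and none passed. Of the 6 pancreas markers 3 rose there, with the 6 summed from 0.537 to 342.5 FPKM. Among all named features of at least 1 FPKM, 7.18% rose and 0.0869% fell after 5/6Nx. The part of the mix of cells in the members' values was not tested.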

How the data were processed

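Total RNA of 17 left kidneys was sequenced from both ends after a stranded total RNA library preparation, per the labels' protocols, whose text also calls the libraries small RNA. Tools in the submitters' processing notes are Cufflinks (version 2.2.1), StringTie, TopHat2 (version 2.1.1), FastQC and cutadapt, with rn5 as the build. Sequence names of later assemblies also occur in the tables, which leaves the build of the listed positions unsettled. For each surgery the authors deposited a gene and an isoform table with 1 FPKM per group, a log2 fold change, a p-value and a q-value, per the file headers. The tables have the layout of Cuffdiff, and its use of the animals as replicates was not given in the sources used here. A deposited summary of the sequencing lists, per library, a read count, a quality score and the mapped percent. All 17 samples were placed by their labels and 0 columns were left unmapped.

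A planned limma fit on single libraries could not be run because the tables hold group values. The deposited p-values and q-values were used instead, with q under 0.05 as the threshold. Log2 fold changes were computed from the 2 deposited group FPKM values. No SD or n of animals can be set beside an FPKM. Rows with several names are shifted in the tables and were read from their end. Fold changes of low genes are imprecise. Counts, medians and sums over genes were computed with Python 3.11.15 and pandas 2.3.3, and the Benjamini-Hochberg step was checked on simulated p-values. The members and gene lists were chosen with earlier results of these data known. Named were every member past the threshold in either table, the most abundant and the most changed of each complex, the sets of alternative genes, the regulators and, of other lists, up to 4 members past the threshold. Alternatives were another FPKM minimum, the isoform tables, other thresholds, recomputed q-values, pseudocounts, centring and other choices of rows. Promoter windows are RefSeq's (GRCr8).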

Additional observations from a re-analysis of the deposited data

Results flagged for a closer look

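The read count of 5/6Nx replicate 5, 103.6 M reads, stood apart from the other libraries of its group, with a gap of 0.685 of the group's range to its neighbour, and was the 1 value set apart among 9 group measures examined. Chance sets apart about 1 in 20 groups. The members' group values include this library, and its part in them was not tested.

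A feature of the authors' deposited table that joins several mitochondrially encoded subunits, among them Mt-co1, Mt-cytb and Mt-atp6, was at 27950.4 FPKM in 5/6Nx and listed at 0 in sham. It carries the status LOWDATA there, without a stated reason, so no test was made and it entered no comparison.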

How the results depend on the processing

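The count of genes that fell after 1/3Nx, 16, was 7 in the isoform table, 4 at a q under 0.01 and 50 passing (49 of them lower) at an unadjusted p under 0.05, and 16 to 18 under the other alternatives. Among the 16 genes, 7 also passed in the isoform table, 8 kept their log2 fold change to within 0.011 without passing (for 5 of them fold and p were equal and only the q was higher), and Ndufs7 turned to a log2 fold change of 0.30 there, on a transcript of low level. All 16 still passed with q-values recomputed over named features. The 5/6Nx count, 0, was 1 at an unadjusted p under 0.05 and 0 otherwise. Centred on named features of 10 FPKM or more, the median log2 fold change was -0.42 after 1/3Nx and -0.079 after 5/6Nx. Otherwise it lay between -0.57 and -0.55 after 1/3Nx and between -0.28 and -0.11 after 5/6Nx. After centring, 44 of 78 members were lower after 5/6Nx. Leaving out features with a second name and adding Ndufab1 and Ndufa5 were chosen after seeing the data. No replicate could be left out, and the depth behind an FPKM value is not known per gene. No paired analysis was possible because the tables hold 1 value per group and the labels number no pairs.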
